A study of Drosophila melanogaster with 12 samples.

Results

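Adult male flies were kept on yeast-poor or yeast-rich food, and the mRNAs that sediment with few ribosomes were compared between the diets. The comparison uses 6 of the 12 arrays of the study, chosen by their labels: 3 from flies on 0.25% yeast extract (YE) and 3 from flies on 4% YE, all of the fraction called low translation. All flies were whole males of the strain w1118, moved at 1 to 2 days of age onto either food for 6 days and taken at 7 to 8 days of age. Extract of about 100 males was run on a sucrose gradient, and RNA was prepared from a low fraction (1 to 4 ribosomes per mRNA) and a high fraction (5 or more). The other 6 arrays hold the high fraction of the same diets and enter as the contrast in which the low fraction may differ. The labels describe the 3 replicates of a group as separate biological replicates, so the spread below is between gradients of pooled males.

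Yeast is the main source of protein, and also of sterols, vitamins and nucleic acid bases, in laboratory fly food, and cutting it down is the usual form of dietary restriction in Drosophila. Ribosomes load one after another onto an mRNA, so mRNAs with few ribosomes run in light polysomes and monosomes, and heavily translated or long mRNAs run deeper in the gradient. The level of an mRNA in a light fraction depends both on how much of it the animals hold and on how it is spread over the gradient. These cannot be told apart from the low fraction arrays alone. In whole flies, fewer cells of a type and less RNA per cell cannot be told apart either. Each array started from 100 ng of RNA, so every level is relative to the other mRNAs of its fraction.

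The values are intensities of 18769 probe sets, brought to a common scale by quantile normalization over all 12 arrays. Of these, 11261 passed a filter on dim signal and were tested with limma on the scale of log2(value + 1), and an adjusted p under 0.05 is termed a call. In the 6 low fraction arrays, deposited medians ran from 39.3 to 52.8, and at least 59.8% of probe sets lay above background, taken as the 95th percentile of the 100 control probe sets of an array. The first replicate of both diets stood apart: it correlated with its group mates at 0.859 to 0.931 on the log2 scale, against 0.981 to 0.986 between replicates 2 and 3. The deviations of same-numbered arrays of the 2 diets from their group means correlated at 0.345 to 0.579, but those of replicates 2 and 3 did so as strongly across numbers, so this sets only the first arrays apart. Fits with the replicate number as a block are given where they change a result, as are fits without both first arrays. Among organ markers, 32 of 32 accessory gland and seminal fluid genes and 34 of 37 testis genes were above background in all 6 arrays. Of 16 yolk, eggshell and female germline genes, 9 were above background in none, Yp1 among them, and 1 (grk) was above it in all 6.

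In the fit used here, more of the called signals of the low fraction fell than rose on yeast-poor food. Of 11261 probe sets, 109 were called (0.968%), 98 lower on 0.25% YE (0.87%) and 11 higher (0.0977%). The falls had a median size of 3.52-fold, and 36 of them exceeded 4-fold, whereas the median rise was 2.06-fold. Arrays of the 2 diets did not overlap for any of the 109 called probe sets, while they did not overlap for 16.8% of all probe sets tested. At an unadjusted p under 0.05 there were 1015 probe sets (9.01%), split more evenly, with 590 lower (5.24%) and 425 higher (3.77%). The median standard error of a difference was 0.29 on the log2 scale, and the median difference of all probe sets was 0.03. With the replicate block 254 probe sets were called (2.26%), 203 lower and 51 higher, and all 109 calls were among them. That imbalance depended on the fit: weighting arrays by their quality gave 827 higher and 826 lower, and fitting the low fraction arrays alone gave 3 and 31. Without both first arrays there were 118 calls (1.05%), which held 74 of the 109. Leaving out single arrays gave 41 to 108 falls and 1 to 27 rises, and 38 of the 109 calls were kept whichever of the 6 arrays was left out.

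**Figure D1:**
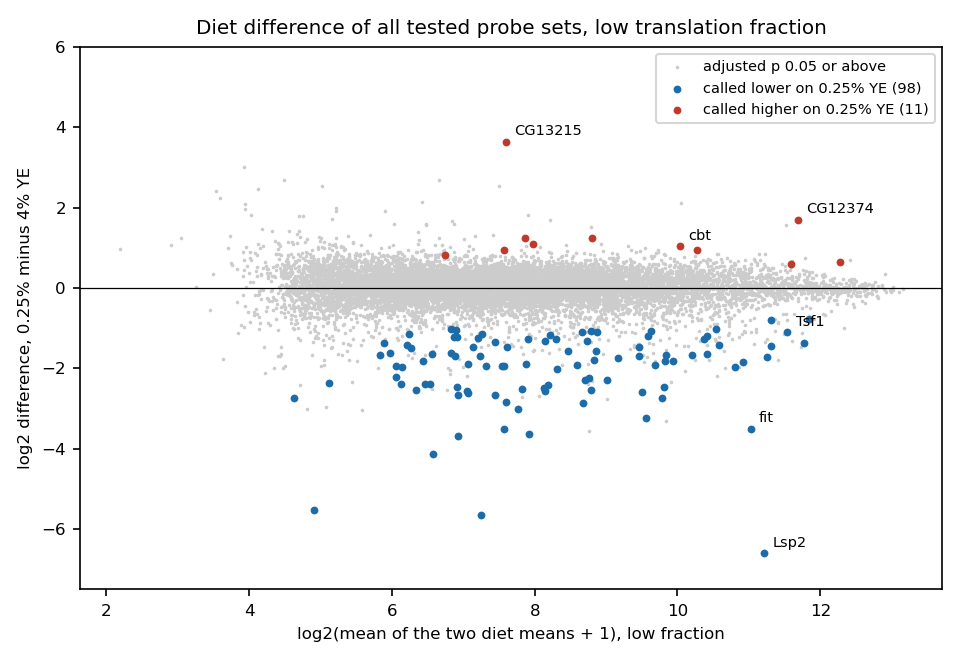
Difference between 0.25% and 4% YE in the low fraction (log2 scale, vertical) against mean intensity (log2 scale, horizontal) for the 11261 tested probe sets. The 98 called falls in blue lie at all intensities and reach -6.61 for Lsp2, and the 11 called rises in red reach 3.64 for CG13215.

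The deepest fall was in a storage protein of the fat body. Lsp2 encodes larval serum protein 2, a hexamerin that is made by the fat body and held in the haemolymph as an amino acid store. Its normalized intensity was 4755, 4975 and 4338 in replicates 1, 2 and 3 on 4% YE and 15.1, 71.4 and 94.2 on 0.25% YE. The lowest 4% array was thus far above the highest 0.25% array, and on 0.25% YE the signal was above background in 2 of 3 arrays. The difference was -6.61 ± 0.77 on the log2 scale (limma, SE, n = 3 per diet; adjusted p = 0.000909), or 97.4-fold, and it was called whichever array was left out. Without both first arrays it was -5.81.

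A second bright fall was in fit, whose product is a secreted peptide of the fat body that has been linked to satiety for protein. It gave 2934, 4116 and 4179 on 4% YE and 98, 621 and 563 on 0.25% YE. All 3 yeast-poor arrays were lower than all yeast-rich ones, with the first of them the lowest. The difference was -3.50 ± 0.59 (adjusted p = 0.0142). It lost its call without replicate 2 (0.0781) or 3 (0.0691) of 4% YE, and its adjusted p over the 18 alternatives ran from 4.98e-07 to 0.137.

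Tsf1, the transferrin that carries iron in the haemolymph, gave 4558, 3976 and 3603 on 4% YE and 2181, 1736 and 1767 on 0.25% YE. These groups were apart, and the difference was -1.10 ± 0.20 (adjusted p = 0.0204). The call was lost without any one of the 4% arrays or replicate 2 or 3 of 0.25% YE (adjusted p 0.0587 to 0.0973), and its adjusted p over all alternatives ran from 1.88e-06 to 0.0973. Of 12 fat body secreted proteins tested, these 2, Lsp2 and Tsf1, were called, against 93 of 9494 genes tested (0.98%), and the list median was -0.33 against 0.03 for all genes. Without both first arrays only Lsp2 was called and the list median was -0.15. The other 10 members ranged from smp-30, a calcium-binding regucalcin relative, at -2.18 ± 0.83 (adjusted p = 0.399) to Apoltp, a lipid transfer particle apolipoprotein, at 0.25 ± 0.39. The block gave smp-30 an adjusted p of 0.0484. The abundant lipoprotein apolpp read 5049 ± 238 on 4% YE and 4890 ± 413 on 0.25% YE (SD, n = 3). The summed level of the 15 fat body genes on the array was 33467 to 36817 on 4% YE and 19529 to 25507 on 0.25% YE, and the part of fat body amount in these falls was not tested.

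Npc2e, a member of the Npc2 family of secreted lipid-binding proteins, gave 497, 487 and 335 on 4% YE and 32.7, 80.6 and 14.2 on 0.25% YE. Its difference was -3.64 ± 0.64 (adjusted p = 0.017), and the groups were well apart although 1 yeast-poor array was at background. The call was lost without replicate 3 of 0.25% YE (0.0505) or any one of the 4% arrays (0.0547 to 0.0909), and over all alternatives its adjusted p was 0.00081 to 0.115. No other of the 7 Npc2 genes was called, against 0.98% of all genes. The next was Npc2f at -0.84 ± 0.64, and the family median was -0.31, or 0.01 without both first arrays.

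**Figure D2:**
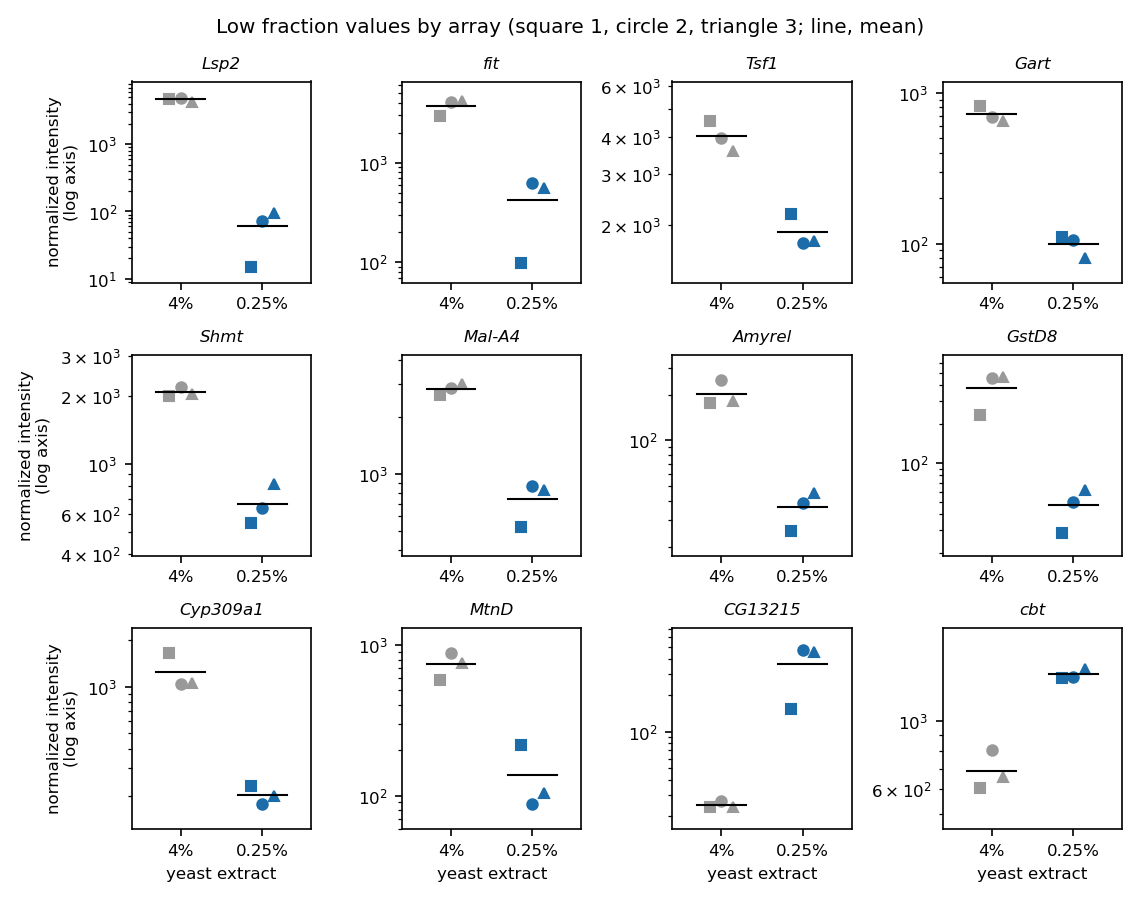
Normalized intensity (log axis) of 12 genes in each low fraction array, 4% YE in grey and 0.25% YE in blue, with squares, circles and triangles for replicates 1, 2 and 3 and a line at the mean. The 2 diets do not overlap in any panel, as in all 109 calls, from which these genes were drawn. The first replicate on 0.25% YE often lies apart from replicates 2 and 3, as for fit with 98 against 621 and 563.

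3 enzymes of purine synthesis and of the folate-bound one-carbon units that feed it, Gart, Shmt and pug, fell on yeast-poor food. Gart is a single protein with 3 of the enzyme activities of purine synthesis. Its intensity was 815, 692 and 655 on 4% YE and 110, 106 and 80.4 on 0.25% YE, the replicates lying close together on each diet. The difference of -2.86 ± 0.23 (adjusted p = 0.000173), or 7.26-fold, was called whichever array was left out, and was -2.85 without both first arrays.

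Shmt, serine hydroxymethyltransferase, which moves a one-carbon unit from serine to folate and forms glycine, gave 1995, 2173 and 2028 on 4% YE and 547, 638 and 815 on 0.25% YE. It fell by 1.65 ± 0.27 on the log2 scale (adjusted p = 0.0122). pug, a folate enzyme that interconverts one-carbon units, gave 2363, 1601 and 1649 against 765, 801 and 734. The yeast-poor arrays of pug were nearly equal, and the difference was -1.26 ± 0.24 (adjusted p = 0.0251). The call for Shmt was lost without replicate 2 of 0.25% YE (0.0576) or replicate 2 (0.0677) or 3 (0.0537) of 4% YE, and its adjusted p over all alternatives was 6.92e-07 to 0.0695. That for pug was lost without any single array other than replicate 1 of 0.25% YE (0.0711 to 0.118), and its adjusted p over all alternatives was 1.77e-05 to 0.121.

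Of 10 purine and one-carbon genes tested, these 3 were called, all lower, and 7 had an unadjusted p under 0.05, all lower, against 0.98% of all genes called and 5.3% lower at that p. The median was -1.12 against 0.03 for all genes, and 7 of the 10 lay below zero. The count was 4 with the block, which added Prat2, against 2.21% of all genes. It was 1 without both first arrays, where the median was -0.98. Leaving out single arrays gave 1 to 3 calls. Prat2, which catalyses the first committed step of purine synthesis, read 750, 1431 and 1149 on 4% YE and 237, 497 and 610 on 0.25% YE (-1.36 ± 0.36, adjusted p = 0.127, or 0.00678 with the block). Further along the pathway, Pfas was at -0.98 ± 0.32 and Paics at -0.56 ± 0.24, neither called. The 2 enzymes that turn inosine monophosphate toward guanine nucleotides were on the other side of zero, ras at 0.41 ± 0.20 and bur at 0.46 ± 0.24, and were not called either. Prat, the paralogue of Prat2, was at 0.10 ± 0.38.

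3 more enzymes of folate and glycine metabolism were among the calls and are named after their values were seen. Mthfs, which returns a storage form of folate to the active pool, gave 1365, 1277 and 1270 on 4% YE and 313, 344 and 384 on 0.25% YE, with little spread in either group. It fell by 1.91 ± 0.20 (adjusted p = 0.000473), whichever array was left out. Tdh and Gcat, which together break threonine down to glycine, were at -1.22 ± 0.20 (adjusted p = 0.0122) and -1.62 ± 0.26 (adjusted p = 0.00995). The call for Gcat was lost without replicate 2 of 0.25% YE (0.0582) or of 4% YE (0.0634), with 7.74e-06 to 0.148 over all alternatives. That for Tdh was lost without replicate 2 of 0.25% YE (0.0689) or replicate 2 or 3 of 4% YE (0.0634 each), with 1.29e-05 to 0.782 over all alternatives.

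Tdh and Gcat were not in the list of amino acid breakdown and gluconeogenesis genes, which had 1 call. ry, the xanthine dehydrogenase that makes uric acid from purines, was called among 24 genes listed under amino acid breakdown and gluconeogenesis, against 0.98% of all genes. At an unadjusted p under 0.05, 9 of the 24 were lower and 1 was higher, and the list median was -0.30, or -0.17 with 0 calls without both first arrays. It read 199, 139 and 140 on 4% YE and 73.8, 81.6 and 73 on 0.25% YE, without overlap. The difference was -1.04 ± 0.22 (adjusted p = 0.0477), and leaving out any one array ended the call (0.0776 to 0.176, with 0.000313 to 0.659 over all alternatives). Oat, which turns ornithine toward proline and glutamate, read 352, 440 and 304 against 9.75, 96.7 and 154, and its difference of -2.73 ± 0.73 had an adjusted p of 0.131 (0.0482 with the block). Without replicate 1 of 0.25% YE the difference of Oat was -1.55 (adjusted p = 0.0446). fbp, the gluconeogenic fructose-bisphosphatase, was at -1.08 ± 0.24 (adjusted p = 0.0574, or 0.0443 with the block). Sam-S, which makes S-adenosylmethionine, was at 0.54 ± 0.22 (adjusted p = 0.445).

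Among carbohydrate-digesting enzymes, Mal-A4, Mal-A2 and Amyrel fell. The Mal-A and Mal-B genes encode alpha-glucosidases (maltases) and Amyrel a relative of alpha-amylase. Mal-A4 gave 2626, 2831 and 3005 on 4% YE and 527, 869 and 829 on 0.25% YE. The lowest yeast-rich array was far above the highest yeast-poor one, and the difference of -1.96 ± 0.25 (adjusted p = 0.00213) was called whichever array was left out. Mal-A2 gave 1241, 1451 and 1402 against 223, 555 and 631 (-1.67 ± 0.34, adjusted p = 0.0382), and Amyrel 175, 251 and 182 against 25.4, 39 and 45.2 (-2.46 ± 0.42, adjusted p = 0.0156). In both the first yeast-poor array was the lowest. Mal-A2 lost its call without replicate 2 of 0.25% YE or any one of the 4% arrays (0.0694 to 0.156, with 1.65e-05 to 0.233 over all alternatives). Amyrel lost it without replicate 2 of 0.25% YE or replicate 2 or 3 of 4% YE (0.0582 to 0.0939, with 6.21e-06 to 0.0939 over all alternatives).

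Of the 11 maltase and amylase genes tested these 3 were called, 10 lay below zero and 9 had an unadjusted p under 0.05, all lower, against 0.98% of all genes called, 5.3% lower at that p and 46.3% below zero. Their median was -1.33 against 0.03 for all genes. With the block the count rose to 7, with Mal-A3, Mal-A7, Mal-A8 and Mal-B2 added, against 2.21% of all genes. Single arrays left out gave 1 to 4 calls, and without both first arrays 2 were called with a median of -0.97. The exception was Mal-A5, at 740 ± 160 on 4% YE and 738 ± 59.3 on 0.25% YE (SD, n = 3). Mal-A1, the brightest, read 5402 ± 160 against 3662 ± 575 (-0.57 ± 0.17, adjusted p = 0.202). tobi, an alpha-glucosidase known to respond to insulin-like signalling and to diet, gave 2710, 2980 and 2934 against 324, 1038 and 1143. Its groups did not overlap, as was so for 16.8% of all probe sets tested. The difference of tobi, -1.98 ± 0.53, had an adjusted p of 0.134, or 0.0154 with the block.

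Other enzymes of sugar handling named after their values were seen were CG32444, listed with the synonym aldose 1-epi, and Sodh1, a sorbitol dehydrogenase. CG32444 gave 5116, 5107 and 4889 on 4% YE and 1865, 1977 and 1980 on 0.25% YE. This was one of the tightest differences, -1.38 ± 0.12 (adjusted p = 0.000197). Sodh1 fell by 1.72 ± 0.26 (adjusted p = 0.00821), from 3734 ± 172 to 1153 ± 263 (SD, n = 3). Both were called whichever single array was left out, and Sodh1 had an adjusted p of 0.0516 without both first arrays, the highest over its alternatives (6.21e-07 to 0.0516). Of 28 digestive serine protease and lysozyme genes none was called in the main fit, which has no block. In that fit 3 had an unadjusted p under 0.05, and the median was -0.26, or -0.11 without both first arrays. With 0.98% of all genes called, a count of 0 in 28 genes is near the background share. The block called 2 of them lower, Jon25Bi (-1.84 ± 0.55) and Jon99Ci (-1.47 ± 0.57), against 2.21% of all genes called. Without replicate 1 of 0.25% YE these differences were -1.06 and -0.63.

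**Figure D3:**
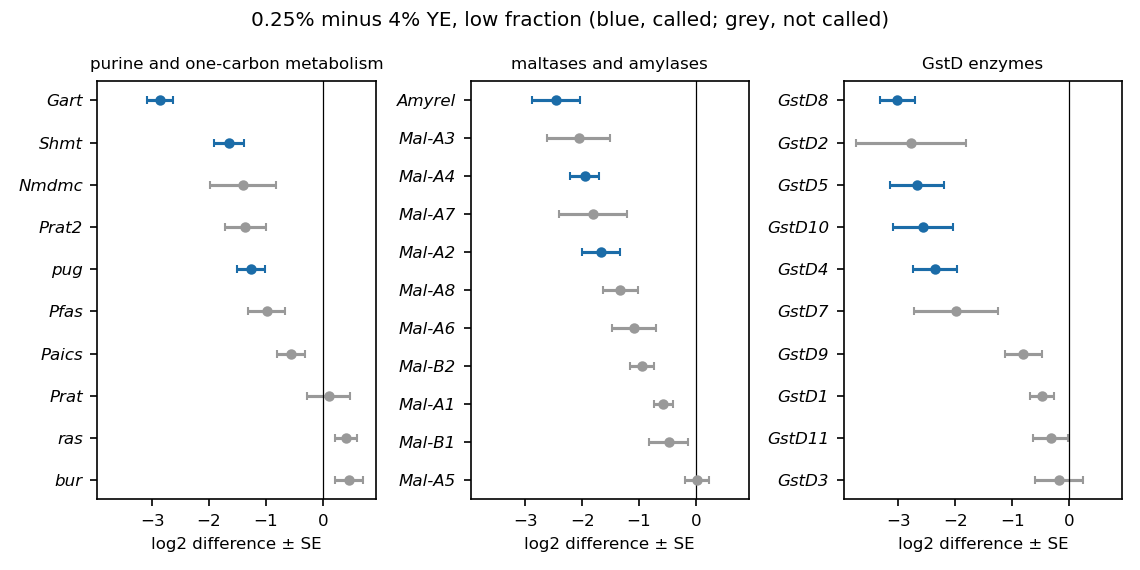
Differences between 0.25% and 4% YE in the low fraction (log2 scale, limma SE as bars, n = 3 per diet) for 10 purine and one-carbon genes, 11 maltase and amylase genes and 10 GstD genes, with calls in blue. Values run from -3.02 for GstD8 to 0.46 for bur, and Mal-A5 lies at 0.01.

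Genes of 3 detoxification families were among the calls. Glutathione S-transferases join glutathione to reactive compounds, cytochrome P450s oxidise them and UDP-glycosyltransferases add sugars to them. Of 33 glutathione S-transferase genes tested, 4 were called, all lower, 16 had an unadjusted p under 0.05, all lower, and 33 of 33 lay below zero, against 0.98% of all genes called, 5.3% lower at that p and 46.3% below zero. Their median was -0.71. All 33 also lay below zero with values as deposited and with median centring, but 28 did without both first arrays, where the median was -0.30 and 7 were called. With the block 7 were called, against 2.21% of all genes, and leaving out single arrays gave 1 to 4.

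The 4 called transferases were all of the GstD class, whose 10 genes had a median of -2.18, against -0.90 for the 13 GstE genes and -0.34 for the 10 others. GstD8 gave 236, 455 and 462 on 4% YE and 28.4, 50 and 61.9 on 0.25% YE, with the first array the lowest on both diets. The difference was -3.02 ± 0.31 (adjusted p = 0.000473), whichever array was left out. GstD5 gave 298, 148 and 184 against 31.2, 30.4 and 30.6 (-2.67 ± 0.47, adjusted p = 0.017), and GstD10 230, 576 and 627 against 28.4, 93.9 and 142 (-2.57 ± 0.53, adjusted p = 0.0394). GstD4 was at background in all 3 yeast-poor arrays and was at least 2.65-fold lower (adjusted p = 0.0123).

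Among these, GstD5 lost its call without replicate 2 of 0.25% YE (0.0726) or replicate 1 (0.0785) or 3 (0.066) of 4% YE, with 5.9e-06 to 0.118 over all alternatives. GstD4 lost it without replicate 2 (0.0781) or 3 (0.0783) of 4% YE, with 0.000212 to 0.118 over all alternatives. GstD10 kept it only without replicate 3 of 0.25% YE or replicate 1 of 4% YE and was at 0.0543 to 0.187 without the others, with 2.68e-06 to 0.279 over all alternatives. GstD1, the brightest of the class, read 6579 ± 1315 against 4815 ± 1446 (SD, n = 3) and was not called (-0.48 ± 0.21, adjusted p = 0.505). GstD2 and GstD7 were at -2.77 ± 0.96 and -1.99 ± 0.74, not called, although the block called GstD7 (adjusted p = 0.021). The GstD genes lie in one cluster and resemble each other in sequence, so a probe set may take up signal of a relative. GstE9 was called in its dimmer probe set (-2.53) and not in its brighter one (-0.83 ± 0.23, adjusted p = 0.137).

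Of 72 cytochrome P450 genes tested, 4 were called, all lower, and 15 were lower at an unadjusted p under 0.05, against 0.98% and 5.3% of all genes, with a median of -0.22. Cyp309a1 gave 1634, 1039 and 1061 on 4% YE and 231, 177 and 200 on 0.25% YE, tight on the yeast-poor diet. It fell by 2.59 ± 0.23 (adjusted p = 0.000197), whichever array was left out. Cyp6a18 (-1.46 ± 0.29, adjusted p = 0.0349), Cyp12d1-d (-1.37 ± 0.26, adjusted p = 0.0237) and Cyp28d1 (-1.02 ± 0.20, adjusted p = 0.0353) were the others, and each kept its call in only 1 of the 6 fits with 1 array left out. Their adjusted p values in the other 5 were 0.052 to 0.148 for Cyp6a18, 0.0717 to 0.12 for Cyp12d1-d and 0.0861 to 0.159 for Cyp28d1. Over all alternatives these ran from 5.64e-05 to 0.19, from 7.74e-06 to 0.178 and from 1.76e-05 to 0.178. With the block 8 were called, against 2.21% of all genes, without both first arrays 5, and with single arrays left out 1 to 7.

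Of 28 UDP-glycosyltransferase genes, 2 were called, both lower, 9 were lower at an unadjusted p under 0.05 and 23 lay below zero, against 0.98% of all genes called, 5.3% lower at that p and 46.3% below zero. Their median was -0.37. Ugt37A1 gave 56.6, 210 and 275 on 4% YE and was at background in all 3 yeast-poor arrays, at least 7.02-fold lower (adjusted p = 0.017). It lost its call without replicate 1 (0.051) or 2 (0.0829) of 0.25% YE or replicate 2 (0.0973) or 3 (0.0926) of 4% YE, with 6.8e-07 to 0.108 over all alternatives. Ugt37B1 gave 203, 174 and 157 against 34.3, 68.6 and 66.3 (-1.70 ± 0.28, adjusted p = 0.0123). It lost its call without replicate 1 (0.0527) or 2 (0.0627) of 4% YE, with 0.000102 to 0.227 over all alternatives. The block called 5 genes of the family, against 2.21% of all genes, with Ugt302E1 (-2.14 ± 0.77), Ugt35C1 (-1.51 ± 0.38) and Ugt49B1 (-1.09 ± 0.26) in addition.

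Metallothioneins, small proteins that bind copper and other metals, were split. Of 4 genes tested, 2 were called, both lower, against 0.98% of all genes, and 3 lay below zero. Their median was -1.59, and leaving out single arrays gave 0 to 3 calls. MtnD gave 589, 889 and 755 on 4% YE and 217, 87.5 and 104 on 0.25% YE (-2.54 ± 0.40, adjusted p = 0.00874), and MtnB 565, 972 and 581 against 252, 111 and 104 (-2.25 ± 0.42, adjusted p = 0.0237). In both the first yeast-poor array was the highest and still below every yeast-rich one. MtnC was at -0.92 ± 0.30 (adjusted p = 0.276). MtnA, the brightest of the 4, read 6808 ± 285 on 4% YE and 8613 ± 138 on 0.25% YE (SD, n = 3; 0.34 ± 0.12, adjusted p = 0.333). MtnD lost its call without replicate 2 of 4% YE (0.0557, with 5.25e-07 to 0.0636 over all alternatives). MtnB kept it only without replicate 1 of 0.25% YE and was at 0.0532 to 0.126 without the others, with 5.9e-06 to 0.126 over all alternatives.

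Single calls came from further lists, against 0.98% of all genes called. PPO1, the prophenoloxidase of crystal cells (blood cells that darken wounds), gave 613, 621 and 566 on 4% YE and 225, 325 and 310 on 0.25% YE. It fell by 1.08 ± 0.21 (adjusted p = 0.0332), and leaving out any one array ended the call (0.0523 to 0.155, with 0.000143 to 0.567 over all alternatives). None of the other 9 haemocyte genes tested was called, the nearest being PPO2 at -0.57 ± 0.21, and Hml, a general haemocyte marker, read 309 ± 15.7 against 301 ± 55.8 (SD, n = 3). Mur18B, a mucin-related gene, was the 1 call of 13 peritrophic matrix and mucin genes (-0.80 ± 0.16, adjusted p = 0.0392), and it too was lost with any one array left out (0.0676 to 0.199, with 5.35e-05 to 0.277 over all alternatives).

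Among the 15 deepest falls measured on both diets were also genes whose products the gene table used here does not describe. CG14957 gave 296, 353 and 371 on 4% YE and 59.5, 41 and 40.9 on 0.25% YE, CG13311 gave 317, 278 and 297 against 52.6, 29.9 and 60.1, and CG13325 gave 176, 264 and 235 against 32.8, 34.5 and 43.7. The diets were far apart in each, with differences of -2.84 ± 0.25 (adjusted p = 0.000197), -2.68 ± 0.29 (adjusted p = 0.000674) and -2.56 ± 0.29 (adjusted p = 0.000772). CG3999 gave 255, 232 and 197 against 44.1, 34.7 and 30.6 (-2.62 ± 0.31, adjusted p = 0.00123), and CG15533, listed with the synonym aSMase, 458, 249 and 324 against 10.1, 47.7 and 45.2 (-3.51 ± 0.53, adjusted p = 0.00773). All 5 of these kept their calls whichever array was left out. So did Fst, named after its values were seen and known for its induction on recovery from cold, which fell by 2.29 ± 0.22 (adjusted p = 0.000374). CG15263 gave 110, 315 and 244 against 5.85, 25.3 and 21.5, above background in 1 of the yeast-poor arrays (-3.69 ± 0.67, adjusted p = 0.021). It lost its call without replicate 1 of 0.25% YE (0.0543) or replicate 2 (0.114) or 3 (0.0967) of 4% YE, with 2.1e-06 to 0.114 over all alternatives. Its yeast-poor signal was near background, and its difference ran from -4.13 to -1.75 over these.

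Of the calls, 11 were rises, and 425 probe sets were higher at an unadjusted p under 0.05. CG13215 went from just above background to a clear signal, with 23.8, 26.8 and 23.8 on 4% YE and 154, 475 and 452 on 0.25% YE. The lowest yeast-poor array was several times the highest yeast-rich one, and the difference of 3.64 ± 0.35 (adjusted p = 0.000363), or 12.5-fold, was called whichever array was left out. CG12374 gave 1070, 1632 and 1826 on 4% YE and 2919, 5797 and 6466 on 0.25% YE (1.70 ± 0.27, adjusted p = 0.00893). Akap200, an anchor protein for protein kinase A, gave 198, 307 and 297 against 588, 657 and 636 (1.25 ± 0.21, adjusted p = 0.0137). Both lost their calls only without replicate 2 of 0.25% YE (0.0523 and 0.0726), with 7.47e-08 to 0.152 and 1.4e-05 to 0.239 over all alternatives.

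cbt, a zinc-finger transcription factor known to respond to dietary sugar, gave 606, 802 and 657 on 4% YE and 1378, 1386 and 1469 on 0.25% YE. The yeast-poor arrays were closely grouped and the difference was 1.04 ± 0.18 (adjusted p = 0.017). SK, a calcium-activated potassium channel, gave 163, 166 and 152 against 361, 370 and 298 (1.09 ± 0.21, adjusted p = 0.0299). Nadk1a, an NAD kinase, gave 1016, 770 and 754 against 1977, 1485 and 1446 (0.95 ± 0.18, adjusted p = 0.0251). In all 3 genes, as in every call, the diets were fully apart.

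The other rises were swi2 (0.95 ± 0.19, adjusted p = 0.0392), the choline transporter-like gene Ctl1 (0.82 ± 0.17, adjusted p = 0.0449) and osi (0.65 ± 0.13, adjusted p = 0.0327). Each of these 6 lost its call in at least 3 of the 6 fits with 1 array left out. The adjusted p in the fits that ended it was 0.0533 to 0.0913 for cbt, 0.0518 to 0.148 for SK, 0.0726 to 0.136 for Nadk1a, 0.0973 to 0.192 for swi2, 0.052 to 0.237 for Ctl1 and 0.0834 to 0.152 for osi. Without both first arrays Nadk1a alone of the 6 stayed called. Over all alternatives the adjusted p reached 0.281 for cbt, 0.396 for SK, 0.297 for Nadk1a, 0.34 for swi2, 0.713 for Ctl1 and 0.835 for osi, and its lowest values were between 8.19e-06 for Nadk1a and 0.000648 for Ctl1. 2 further called rises, in Lmpt (1.23) and Mf (0.60), came from dimmer probe sets of genes whose brightest probe set was not called, that of Mf being at -0.19 ± 0.16.

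None of the 13 genes tested of the nutrient signal list was called, against 0.98% of all genes. Of these 13, 9 lay above zero and 4 below, with a median of 0.25. At an unadjusted p under 0.05, 2 were higher and 1 was lower. sug, a sugar-responsive transcription factor, gave 216, 108 and 106 on 4% YE and 349, 571 and 418 on 0.25% YE, and daw, an activin-like ligand of the fat body and muscle, 171, 71.6 and 68.3 against 621, 292 and 202. Both sets of groups were apart, as were those of 16.8% of all probe sets tested. The differences of 1.68 ± 0.38 and 1.80 ± 0.50 were not called (adjusted p = 0.0675 and 0.141). The replicate block called both (0.0156 and 0.00103), against 2.21% of all genes called with it. sug was also called without both first arrays (0.0395), with 2.38e-06 to 0.3 for sug and 2.65e-05 to 0.484 for daw over all alternatives. InR, the insulin-like receptor, gave 126, 74.1 and 74.4 against 239, 150 and 133 (0.92 ± 0.29, adjusted p = 0.233), and was likewise called with the block (0.0144).

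Further along that pathway, S6k, a kinase that promotes translation, was at 0.54 ± 0.35, ImpL2, an insulin-like peptide binding protein, at 0.66 ± 0.52, and foxo, the transcription factor that insulin signalling restrains, at 0.11 ± 0.47. eIF4E1, the cap-binding initiation factor, read 1367 ± 98.4 on 4% YE and 1471 ± 191 on 0.25% YE (SD, n = 3; 0.10 ± 0.17, adjusted p = 0.936). None of the 22 insulin and TOR signalling genes tested was called in the main fit, 2 had an unadjusted p under 0.05, 19 lay above zero and the median was 0.27. Of all genes 0.98% were called, so no call in 22 genes is near the background share, and 5097 of 9494 lay above zero. The insulin-like peptide genes lay on the other side, Ilp5 at 113 ± 13.1 against 61 ± 16.7 (-0.91 ± 0.23, adjusted p = 0.105) and Ilp2 at 138 ± 2.9 against 77.8 ± 73.2 (-2.54 ± 1.33).

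Lists of the translation machinery held no call, and with 0.98% of all genes called, lists of this size hold few calls or none at the background share. The 28 cytosolic ribosomal protein genes tested ranged from -0.15 to 0.12 with a median of -0.03, none with an unadjusted p under 0.05. This median depended on the scale used and was -0.25 with median centring, when the median of all genes was -0.03. The 43 translation initiation factors had a median of 0.03, the 30 aminoacyl-tRNA synthetases -0.03, and the 35 ribosome biogenesis genes 0.01, again with 0 calls by limma in each. Of these, 2 synthetase genes were higher at an unadjusted p under 0.05. The 69 mitochondrial ribosomal protein genes had a median of -0.21 and the 26 proteasome genes one of -0.16, with 0 calls and 0 genes at an unadjusted p under 0.05, and both medians changed sign without both first arrays (0.04 and 0.03). The 32 complex I genes had a median of -0.02, with 0 calls and 1 gene lower at an unadjusted p under 0.05. In all, 37 of the 48 gene lists held no called member, at list sizes of 2 to 72 tested genes and a background of 0.98% of genes called.

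The muscle, neuron, testis and accessory gland marker lists also held no call in the main fit, and their medians lay on both sides of zero. Of all 9494 genes tested, 0.98% were called, or 2.21% with the block, and lists of this size hold few calls or none at these shares. Of the 9494, 5097 lay above zero and 330 were higher at an unadjusted p under 0.05. Of 23 muscle genes 21 lay above zero, with a median of 0.41 and 5 higher at that p. The block called 1 of them, bt, a giant protein of the sarcomere (0.75 ± 0.42, adjusted p = 0.684, or 0.0137 with the block), and the summed level of the 24 on the array was 38115 to 42258 on 4% YE and 47274 to 51561 on 0.25% YE. Of 17 neuronal genes 16 lay above zero (median 0.29), with a summed level of 5265 to 7182 for 20 genes on 4% YE and 8438 to 9058 on 0.25% YE. Both lists' sums thus did not overlap between the diets, and their part in rises such as that of SK was not tested. Such a gap was not particular to these lists. The 14 citric acid cycle genes summed to 26874 to 28178 on 4% YE and 28970 to 31189 on 0.25% YE. The 31 vacuolar ATPase genes gave 27734 to 28206 and 30934 to 33738. Sums of the testis and accessory gland lists overlapped between the diets. In the high fraction the medians of the muscle and neuronal lists were 0.41 and 0.42. The 36 testis genes had a median of 0.24, which was -0.01 without both first arrays, and the 32 accessory gland and seminal fluid genes one of -0.04. Of 17 antimicrobial peptide genes none was called in the main fit (3 at an unadjusted p under 0.05). Mtk and DptB, both immune-induced, were called with the block only (2.11 ± 0.63 and 1.68 ± 0.75, adjusted p = 0.00274 and 0.0114, against 0.204 and 0.527 without it). These were 2 of the 17 genes, against 2.21% of all genes called with the block.

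**Figure D4:**
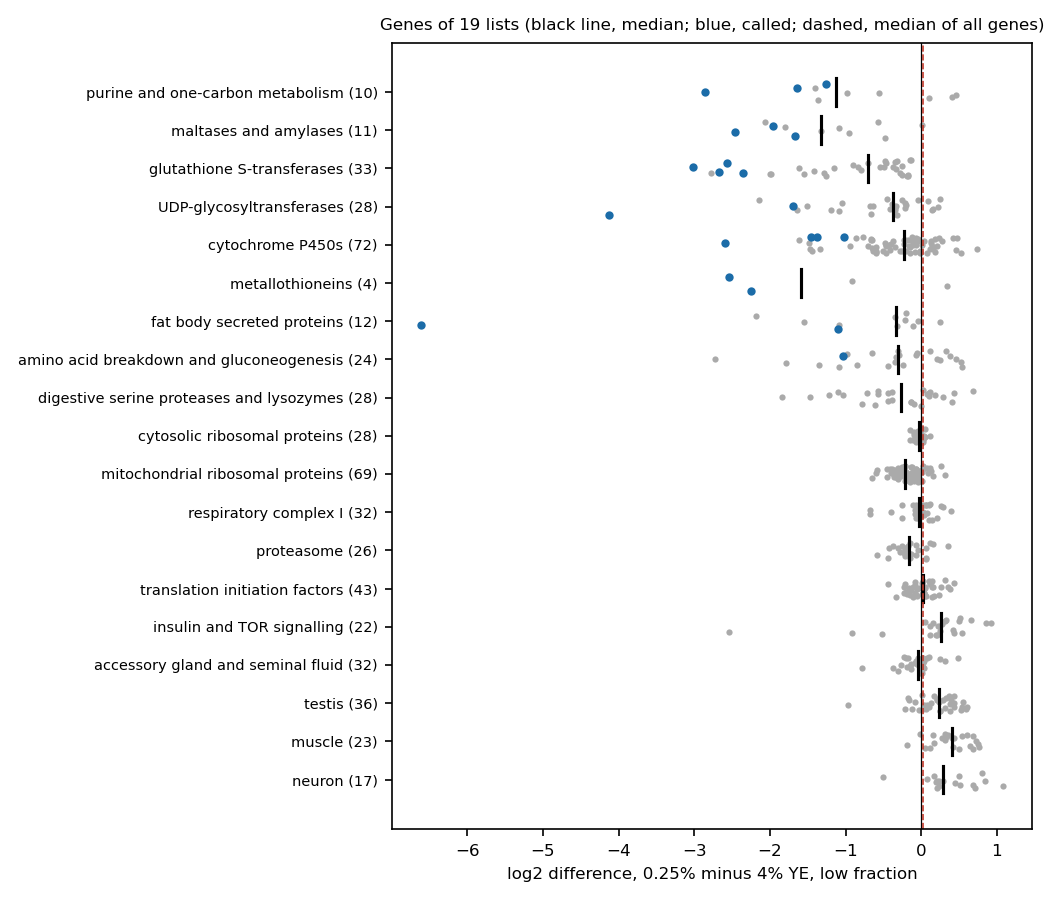
Differences between 0.25% and 4% YE in the low fraction (log2 scale) for each tested gene of 19 of the 48 lists, with the number of genes in brackets, called genes in blue, a black line at each list's median and a dashed line at the median of all genes (0.03). The metabolic and detoxification lists at the top extend to the left, to -6.61 for Lsp2, while cytosolic ribosomal proteins stay between -0.15 and 0.12.

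The diet difference in the high fraction was set beside that in the low fraction to see which changes were particular to the low one. In the high fraction 199 of 11261 probe sets were called (1.77%), 138 lower and 61 higher. Of the 109 calls of the low fraction, 69 were called in the same direction in the high fraction. Lsp2 differed by -6.38 ± 0.77 there, Gart by -2.88 ± 0.23, Cyp309a1 by -2.65 ± 0.23, MtnD by -2.54 ± 0.40 and CG13215 by 4.68 ± 0.35. Some list medians were less alike. Cytosolic ribosomal proteins were at -0.03 in the low and 0.27 in the high fraction, and mitochondrial ones at -0.21 and 0.26. Complex I genes were at -0.02 and 0.53, against 0.03 and 0.01 for all genes. The citric acid cycle list went the other way (0.16 and -0.27), and the proteasome list was alike (-0.16 and -0.14). List medians were not tested between fractions. The low and high arrays may hold RNA of the same extracts, so likeness between the fractions is not support from separate flies.

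The test of the difference between the fractions called 1 probe set (0.00888%), in CG43131, and 484 (4.3%) had an unadjusted p under 0.05. CG43131 gave 66.8, 53.9 and 53.2 in the low fraction on 4% YE and -8.25, -7.04 and 1.08 on 0.25% YE, where it was at background in all arrays. It was at least 2.75-fold lower on yeast-poor food (adjusted p = 0.000173), whichever array was left out. In the high fraction it gave 31.1, 37.6 and 31.5 on 4% YE and 17.4, 34.7 and 38 on 0.25% YE, overlapping and above background in all 6 arrays. The difference between the fractions was -5.30 ± 0.63 on the log2 scale (adjusted p = 0.0212), a size that depends on where dim values are floored. It lost its call with the block, with pseudocounts of 16 or 64, and without both first arrays or any one of the 4% low fraction arrays.

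dpr6, a cell surface protein of the immunoglobulin family found on neurons, was also at background in the low fraction on 0.25% YE. It gave 42.9, 50.6 and 33.4 in the low fraction on 4% YE and was not above background in any yeast-poor array, at least 2-fold lower (adjusted p = 0.00071, whichever array was left out). In the high fraction it read 49.2 ± 13.1 and 44.2 ± 2.94 (SD, n = 3), and the difference between fractions was not called (adjusted p = 0.275). The size of that difference rests on yeast-poor low fraction values that were below background. Ctl1 rose by 0.82 in the low fraction and was at -0.16 ± 0.17 in the high one, and the difference was not called (0.98 ± 0.24, adjusted p = 0.995). The median standard error of a difference between the fractions was 0.41 on the log2 scale, against 0.29 for the diet difference in the low fraction, which limits what this test could detect. The main fit took all arrays as independent, so this standard error leaves out any pairing of low and high fractions of an extract.

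**Figure D5:**
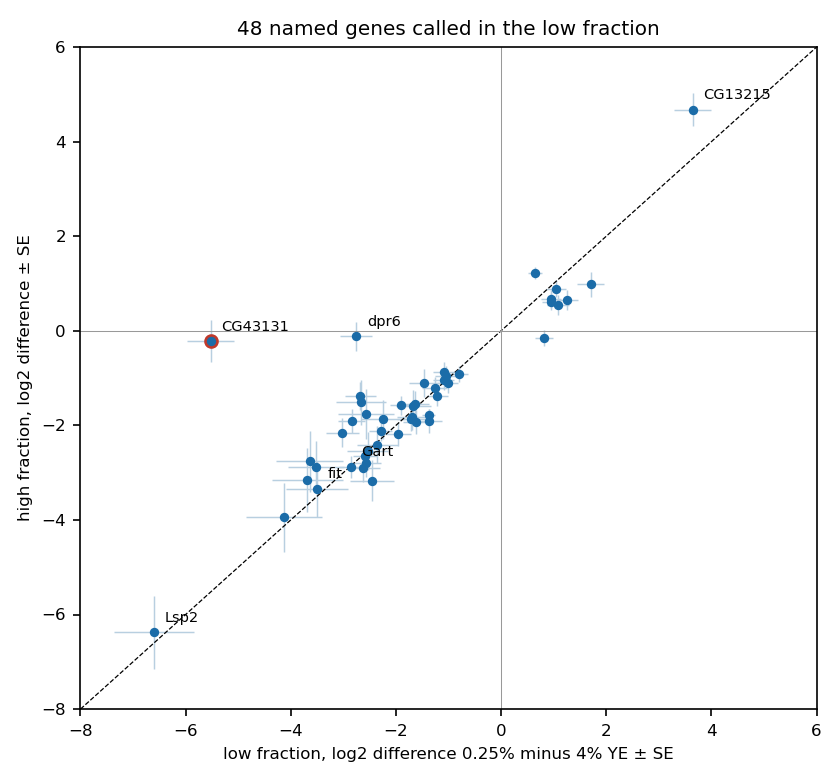
Diet difference in the high fraction (vertical) against that in the low fraction (horizontal), log2 scale with limma SE as bars, for the 48 named genes called in the low fraction. Most points lie near the dashed line of equal differences, while CG43131 in red, the 1 call for a difference between fractions, and dpr6 lie left of it at fitted positions of -5.52 and -2.75, which stand for falls of at least 2.75-fold and 2-fold because both were at background there on 0.25% YE.

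Some of the called genes are neighbours in the genome. Of 98 called genes placed on the Release 6 assembly, 22 (22.4%) had another called gene within 5 protein-coding genes, as had 604 of 9427 tested genes placed (6.41%). This made 13 pairs, 11 of them with both genes called in the same direction, where 87 of the 98 placed genes were lower. They include GstD4, GstD5, GstD8 and GstD10 on chromosome 3R, MtnB and MtnD on 3R, and Mal-A2 and Mal-A4 on 2R, all members of clustered families. Adjacent pairs outside these families were CG15263 with UK114 on 2L (both lower), CG16727 with CG17752 on 3R (both lower) and CG6415 with Lip2 on 2L (both lower). In 2 pairs the directions were opposite, CG42807 with Nadk1a and CG6012 with osi, the second gene of each being higher.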

How the data were processed

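RNA of sucrose gradient fractions was labelled as biotinylated cRNA and hybridised to 1-colour Affymetrix Drosophila 2.0 arrays, per the labels' protocols. The values are linear intensities as the authors deposited them, with 11.1% to 13.7% below 0 in the low fraction arrays. The program that summarised the probes and any scaling are, in the sources used here, not given, and the number of arrays limits the precision. The members and gene lists were chosen with earlier results of these data known.

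The 18769 non-control probe sets of 18869 were quantile normalized over 12 arrays, floored at 0 and taken to log2(value + 1). The dimmest 40% by mean (under 23.7) were left out, and 4 group means were fitted with limma 3.58.1 in R 4.3.3 (8 residual degrees of freedom, intensity trend, Benjamini-Hochberg adjustment over 11261 probe sets). The scripts were tested on simulated data. Adjusted p values throughout are limma's, two-sided, and ± after a log2 difference is its SE. A fold against a group with no array above background is a bound, computed from the mean of the higher of each array's background and its own value.

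Genes came from the platform annotation: 13646 probe sets had 1 symbol, 402 several and 4721 none, and 13543 matched the gene table. The brightest probe set stood for a gene with several, and levels of different probe sets were not compared. Named genes were the 15 largest rises and falls measured on both diets, the 5 largest each way with 1 diet at background, up to 5 called members of smallest p of each list, 8 fixed genes of nutrient signalling, and genes called for a difference between fractions. 1 of the fixed genes, Ilp6, was not matched to a probe set here. Members called with the block only, and genes said to be named after their values were seen, fall outside this rule, as do list members given for contrast. 6 entries that matched a wrong gene were taken out of the lists, none of them called, and 145 list entries had no probe set with that symbol.

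Departures of same-numbered arrays from their group means correlated at 0.345 to 0.579 in the 3 pairs, although replicates 2 and 3 correlated across numbers as much (0.363 to 0.518). The main fit did not pair the samples, and the replicate number entered as a block only in an alternative fit. The numbers come from the array titles, of which the first on 4% YE carries none and was taken as 1.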

Additional observations from a re-analysis of the deposited data

Results flagged for a closer look

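The diet difference of CG43131 differed between the fractions by -5.30 on the log2 scale (limma, adjusted p = 0.0212; 95% interval -6.67 to -3.94), the only one of 11261 such tests to be called, with 484 at an unadjusted p under 0.05. Its low fraction signal was at background in all 3 arrays on 0.25% YE, so the size depends on where dim values are floored, and the call was lost with pseudocounts of 16 or 64, with the replicate block and without both first arrays. Apart from the array correlations, which set the first arrays apart, the array quality weights and the fits without single arrays, groups of 3 arrays were not searched for outlying samples.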

How the results depend on the processing

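The counts of calls in the low fraction depended on the processing, and the cause was not tested. Against 11 higher and 98 lower, array quality weights gave 827 higher and 826 lower, the replicate block 51 and 203, no filter on dim probe sets 24 and 77, and median centring 6 and 131. Values used as deposited gave 2 higher and 40 lower. The low fraction arrays fitted alone gave 3 and 31, or 3 and 32 when also normalized alone, with fewer arrays in the fit. Without the first arrays of both diets, an alternative chosen after seeing the data, there were 22 higher and 96 lower. Leaving out single arrays gave 1 to 27 higher and 41 to 108 lower: 27 and 108 without replicate 1 of 0.25% YE, 1 and 51 without its replicate 2, 9 and 96 without its replicate 3, 7 and 65, 4 and 41, and 6 and 49 without replicates 1, 2 and 3 of 4% YE. The 48 called named genes kept their sign in every alternative in which they were tested. All 48 stayed called with the block and with the weights, 32 without both first arrays and 19 with the low fraction fitted alone, and the block called 18 further named genes. The replicate block ended no call of the low fraction.

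The test between fractions called 1 probe set as reported, 375 with array quality weights, 4 without a filter, 3 without an intensity trend, and 0 with a filter at 60%, which leaves CG43131 out, with pseudocounts of 16 or 64, with the replicate block or without both first arrays. Single arrays left out gave 0 to 1. The median of the peritrophic and mucin list (0.04) turned to -0.082 without both first arrays, and ran from -0.095 to 0.12 with single arrays left out, being below zero without replicate 2 of 0.25% YE (-0.095) or replicate 1 of 4% YE (-0.081). That of the Npc2 family (-0.31) turned to 0.0068 without both first arrays, and that of the haemocyte genes (-0.25) ran from -0.40 to 0.0093 with single arrays left out, being above zero without replicate 1 of 4% YE. With 3 arrays per diet and the first ones standing apart, genes near background or with moderate differences were measured with little precision.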
